A study of Mus musculus with 2 samples.

Results

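Macrophage nuclei of the mouse vagus nerve ganglia were chosen as nuclei with at least 4 UMIs (unique molecular identifiers, each standing for 1 captured RNA molecule) summed over *Mrc1*, *F13a1*, *Csf1r*, *Ptprc*, *Cd163*, *Dock2* and *Adgre1*, and at least 15 such UMIs per 10000 UMIs of the nucleus. There were 252 among 8714 nuclei. The ganglia came from C57BL/6J mice with a Rosa26-floxed-STOP-Cas9-eGFP allele, 8 to 9 weeks old at purchase and fed chow. In these mice a retrograde adeno-associated virus with Cre (AAVrg-Cre) had been injected into the liver 4 weeks before. All mice carried the allele and received the virus, and Cre removes the stop, so that eGFP marks cells the virus reached. Nuclei of 14 ganglia of 7 females and of 16 ganglia of 8 males were pooled by sex and gave 1 library of each sex. Sex and library therefore cannot be told apart, no test was possible between them, and all intervals are 95% intervals of counting error only.

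Macrophages are resident phagocytes that take up dying cells and debris, present antigen and depend on the receptor encoded by *Csf1r*. In peripheral ganglia and nerves they lie around neuron cell bodies, along vessels and in the sheath, while microglia are the macrophages of the brain and spinal cord. Both carry *Csf1r*, *Adgre1* and *Cx3cr1*. Microglia of the brain also carry *Tmem119*, *P2ry12* and the transcription factor gene *Sall1*, and macrophages outside the brain parenchyma carry *Mrc1*, *Cd163*, *Lyve1* or MHC class II genes. The study calls these nuclei microglia.

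The female library held 17435300 UMIs in 3791 nuclei and the male library 27529730 UMIs in 4923 nuclei. Macrophage nuclei were 136 in the female library, or 3.59% of its nuclei (3.02 to 4.23, Clopper-Pearson), and 116 in the male library, or 2.36% (1.95 to 2.82). Without nuclei that also passed the same limits for genes of another cell class, 75 female and 13 male nuclei were left, 1.98% and 0.264% of all nuclei of the libraries. All 252 were kept. They held 328356 and 271736 UMIs, with medians of 1852.5 and 1972.5 UMIs per nucleus against 2410 and 2691 in all other nuclei. A share of nuclei reflects isolation and filtering as well as the tissue, and their parts in the gap between the libraries were not tested. Of the barcodes, 8 occurred in both libraries, and 0 of these were macrophage nuclei.

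Sex-linked genes followed the sex given to each library. *Xist*, which is transcribed from the inactive X chromosome, had 433 UMIs in 111 of the 136 female macrophage nuclei and 0 UMIs in the 116 male ones. *Ddx3y*, *Uty*, *Kdm5d* and *Eif2s3y*, which lie on the Y chromosome, summed to 135 UMIs in 69 of the male nuclei and 0 in the female ones. The feature *EGFP* had 0 UMIs in the macrophage nuclei and 1 UMI in all other nuclei of both libraries. The methods name a poly(A) sequence of the virus as the one added to the genome, and whether the feature could score eGFP is not clear, so that nothing is read from the 0.

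The limits of the rule lay in a continuous range. At least 4 UMIs of the 7 genes were seen in 370 nuclei, of which 118 with a median of 14408 UMIs were kept out by the limit of 15 per 10000. Of those 118 nuclei, 83 were high in neuron genes, 16 in Schwann cell genes and 9 in satellite glia genes. The highest nucleus kept out had 14.5 per 10000 and the lowest taken in had 15.2. At the other limit, 24 macrophage nuclei had exactly 4 UMIs, and 17 nuclei with 3 UMIs and at least 15 per 10000 stayed outside. The median macrophage nucleus had 9 UMIs of the 7 genes, or 47.4 per 10000, and 201 of the 252 held at least 3 of the 7 genes.

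**Figure D1:**
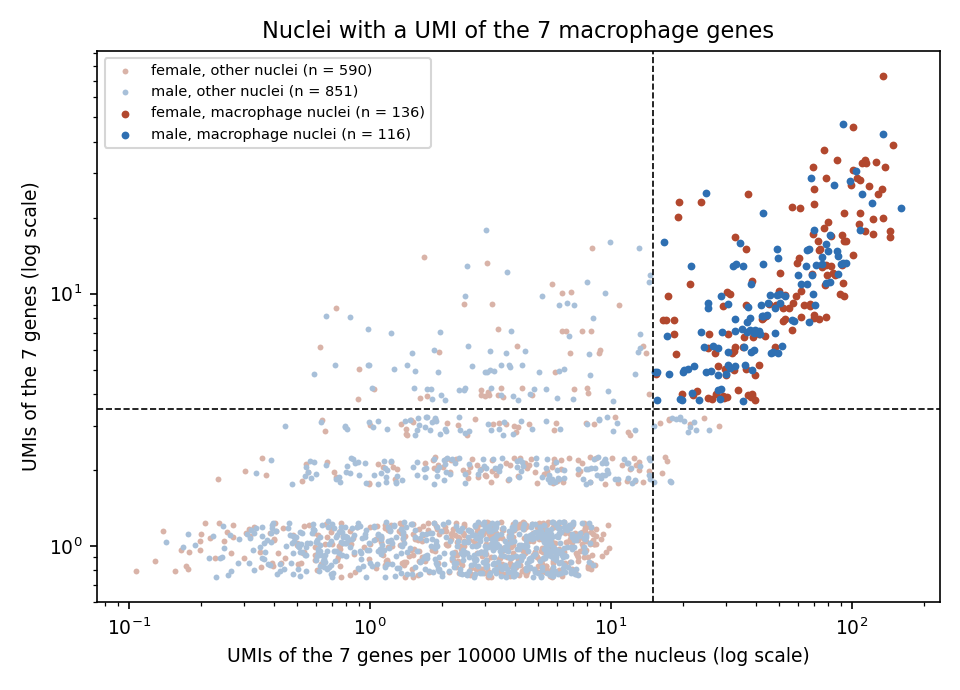
Each point is a nucleus with at least 1 UMI of the 7 genes, with UMIs per 10000 UMIs of the nucleus on the x axis and UMIs on the y axis, both on log scales, points spread slightly in height. Dashed lines are the limits of the rule, and the 136 female and 116 male macrophage nuclei fill the upper right field.

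The 7 genes chose the nuclei, so that their levels are a description. *Mrc1*, the mannose receptor, lies on chromosome 2 of mm10 from 14229392 to 14332057 and had 14.1 UMIs per 10000 in female and 10.4 in male macrophage nuclei. *F13a1*, the A subunit of coagulation factor XIII, lies on chromosome 13 from 36867178 to 37050244 and had 17.1 and 13.2. *Cd163*, the haptoglobin-haemoglobin receptor, lies on chromosome 6 from 124304656 to 124330527 and had 1.92 and 2.58. As the rule used these genes, no difference between the libraries is read from their levels. *Ptprc*, the leukocyte phosphatase CD45, had 8.04 and 6.73, *Dock2*, a Rac activator of leukocytes, had 9.84 and 7.62, *Adgre1*, which encodes F4/80, had 4.14 and 3.35, and *Csf1r* had 2.71 and 2.17. In all other nuclei the 7 genes had between 0.011 and 0.218 per 10000. Single genes were missed in many nuclei. *Dock2* was seen in 77.0% of macrophage nuclei, *Mrc1* in 72.2%, *F13a1* in 66.3% and *Cd163* in 30.2%. The same genes were seen in 7.76%, 3.61%, 6.95% and 0.581% of the 3958 nuclei high in neuron genes, which should lack them and whose median depth of 3481.5 UMIs was above the 1894 of the macrophage nuclei. Free RNA of broken cells can give such UMIs in droplets of any type. After thinning to 1000 UMIs each, *Mrc1* was seen in 61.5% of macrophage nuclei and 1.04% of nuclei high in neuron genes. Mitochondrial genes took 1.46% and 1.53% of the UMIs of the female and male macrophage nuclei, against 1.16% and 0.951% in other nuclei.

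The promoters of *Mrc1*, *F13a1* and *Cd163*, the 3 genes of the rule known from macrophages outside the brain parenchyma, are shown with 250 bases before and 50 after the start site, 5′ to 3′ on the strand of the gene, from RefSeq on GRCm38.p6. Capitals mark GAGGAA or its reverse complement TTCCTC, the letters searched on both strands as the core of the motif of PU.1, the myeloid factor encoded by *Spi1*. The *Mrc1* promoter (chr2:14229164-14229463, plus strand) held 3 matches, the first *F13a1* promoter (chr13:37050195-37050494, minus strand) held 2, the second *F13a1* promoter (chr13:37049164-37049463, minus strand) held 1, and the *Cd163* promoter (chr6:124304401-124304700, plus strand) held 0.
Mrc1: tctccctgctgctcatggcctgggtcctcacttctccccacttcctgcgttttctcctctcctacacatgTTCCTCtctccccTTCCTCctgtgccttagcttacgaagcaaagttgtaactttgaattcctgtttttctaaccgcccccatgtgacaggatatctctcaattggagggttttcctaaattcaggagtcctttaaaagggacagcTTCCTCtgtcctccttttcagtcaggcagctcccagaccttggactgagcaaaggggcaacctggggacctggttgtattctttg
F13a1, first start: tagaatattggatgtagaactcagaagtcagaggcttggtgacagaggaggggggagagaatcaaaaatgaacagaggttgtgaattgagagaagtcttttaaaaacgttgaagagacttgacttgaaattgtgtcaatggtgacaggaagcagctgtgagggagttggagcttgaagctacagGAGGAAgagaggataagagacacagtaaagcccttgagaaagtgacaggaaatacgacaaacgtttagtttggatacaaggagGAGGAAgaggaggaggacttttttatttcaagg
F13a1, second start: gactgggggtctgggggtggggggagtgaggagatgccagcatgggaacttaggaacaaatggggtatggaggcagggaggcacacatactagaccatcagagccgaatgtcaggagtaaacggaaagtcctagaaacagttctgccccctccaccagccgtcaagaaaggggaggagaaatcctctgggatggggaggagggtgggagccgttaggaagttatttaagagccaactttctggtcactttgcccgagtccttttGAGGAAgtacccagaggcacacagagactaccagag
Cd163: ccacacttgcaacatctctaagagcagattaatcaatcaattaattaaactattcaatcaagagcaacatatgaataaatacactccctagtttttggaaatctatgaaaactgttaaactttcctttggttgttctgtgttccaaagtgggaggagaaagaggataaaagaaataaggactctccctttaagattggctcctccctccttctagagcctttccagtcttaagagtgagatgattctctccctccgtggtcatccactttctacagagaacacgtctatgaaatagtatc
The motif occurred in 9289 of 32851 promoters of this length (28.3%). A match is not a site of binding, and no match says only that these letters are not in the window.

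Genes were next described in the macrophage nuclei against all other nuclei of the same library. Genes with at least 50 UMIs in all nuclei were examined for higher levels. Macrophage UMIs count toward these 50, so that some genes were examined only because they are high in the chosen nuclei. *Ms4a4a*, for example, had 43 macrophage UMIs and 16 in all other nuclei. This bears on the counts of genes called higher and on the medians of the lists below. A gene was called higher at 4-fold or more in both libraries with at least 5 macrophage UMIs in each, and lower at 0.25-fold or less in both where the other nuclei predicted at least 10 UMIs in each. Of 17097 genes, 435 were called higher (2.54%), of 5411 genes, 148 were called lower (2.74%), and the median gene had a log2 ratio of 0.06. These calls come from the contrast that chose the nuclei and are given without a test. The 2.54% is the share to set beside the counts of genes called higher in each list below.

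The 25 genes outside the rule that ranked highest by the lower of their folds in the 2 libraries are described next. They include the long non-coding RNAs *Gm5086* at 106-fold and 83.2-fold and *Gm35154* at 88.2-fold and 82.6-fold. *Msr1*, the class A scavenger receptor, had 75 UMIs in female and 49 in male macrophage nuclei against 10 and 15 in all other nuclei, which is 391-fold (201 to 848) and 328-fold (181 to 629). *Fcrls*, an Fc receptor-like scavenger gene often used for microglia, had 47 and 30 UMIs, 144-fold and 167-fold. *Siglech*, a sialic acid-binding lectin of microglia and plasmacytoid dendritic cells, had 32 and 21 UMIs, 111-fold and 211-fold. *Tlr7*, a receptor for single-stranded RNA, was 156-fold and 100-fold, *Aoah*, which inactivates lipopolysaccharide, was 143-fold and 129-fold, and *Vav1*, an exchange factor of immune receptors, was 132-fold and 157-fold. The folds were of the same order in both libraries for each of them, but ranking by the lower fold favours such genes. The group also held the adaptor genes *Blnk* and *Bank1*, known from B cells, at 123-fold and 86.0-fold in the female and 83.3-fold and 90.3-fold in the male library.

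Further genes of the 25 were *Cd84*, *Cd244a*, *Nckap1l*, *Rgs18*, *Dennd1c*, *Nlrp1b*, *Ifi213* and *Mir142hg*, the host of a blood cell miRNA, at 92.0-fold to 156-fold. The log2 ratio of *Cd244a* over both libraries, 7.172, was 5.384 without *Ptprc* and *Dock2* in the rule. That of *Cd84*, 7.021, was 5.568 with other classes counting the same. Over all alternatives the log2 ratios of 32 of the named genes lay between 4.63 and 8.916. *Ms4a4a*, *Ms4a6d*, *Klra2* and *Lilr4b* belong to families of similar genes, among which reads may have been divided, and their folds are uncertain for that reason. *F630028O10Rik*, *Gm42962* and *Gm2245* are annotated as antisense RNAs. *Gm42962* lies across *Tbxas1* and *Gm2245* across *Fyb*, each on the opposite strand. How the counting treated reads of such pairs was not stated. Of the 25 genes, 18 matched the promoter table with 19 promoters. The motif GAGGAA was in 11 of these promoters (57.9%), against 9289 of 32851 promoters in all (28.3%). The genes were picked for their fold, the promoters are few and no test was made, so that no binding is read from this.

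Tissue macrophage genes were compared with microglia genes. Of 25 genes listed for macrophages of tissues and borders of the brain, 18 had enough UMIs and 11 were called higher, with a median log2 ratio of 4.24. The summed list had 77.9 UMIs per 10000 in female and 60.4 in male macrophage nuclei, 5.42-fold and 4.71-fold over the other nuclei. Of 20 genes listed for microglia, 12 had enough UMIs and 7 were called higher, with a median of 2.92. That list summed to 15.5 and 12.7, 4.20-fold and 4.03-fold. Genes are shorter or longer and caught with unequal success, so that the sums rank nothing between the lists. *Siglech* stands also in the list of dendritic cells, and *Cx3cr1* and *Tgfbr1* in that of macrophage receptors, so that the microglia list is not private to its cell type.

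Among the tissue macrophage genes, *Stab1*, a scavenger receptor of perivascular and sinus macrophages, had 3.20 per 10000 in female and 2.13 in male nuclei, 54.2-fold and 53.4-fold. *Dab2*, a clathrin adaptor, had 8.65 and 6.22, 16.2-fold and 18.8-fold, and *Rbpj*, the transcription factor of Notch signalling, had 22.4 and 16.7, 25.7-fold and 21.8-fold. Levels of these 3 genes were somewhat higher in the female nuclei. The female nuclei also held less RNA of the neuron list, and its part in this was not tested. *Ms4a7*, *Timd4*, *Cbr2*, *Pf4*, *Siglec1*, *Cd38*, *Mgl2* and *Lyve1* were called too. *Lyve1*, the hyaluronan receptor of macrophages along vessels and nerves, rested on 7 UMIs in 6 female nuclei and 14 UMIs in 11 male nuclei. *Timd4*, which binds phosphatidylserine on dying cells, rested on 23 and 13 UMIs. Not called were *Maf*, *Wwp1*, *Slc9a9*, *Colec12*, *Gas6* and *Igfbp4*, whose level in other nuclei was between 0.423 and 6.33 per 10000, and *Folr2*, which had 3 and 5 UMIs. *Maf* had 9.08 and 8.32 per 10000, 3.67-fold and 4.14-fold, on either side of the limit.

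Microglia genes were uneven. *Tmem119* had 2 UMIs in female and 1 UMI in male macrophage nuclei. *Sall1* had 4 UMIs in 1 female nucleus and 0 in the male nuclei, and *Sall3*, *Slc2a5*, *Crybb1* and *Gpr84* had 0 in all 252 nuclei. A count of 0 allows up to 0.05 per 10000 over both libraries and a UMI in up to 1.19% of the nuclei. It does not limit the share of nuclei that express the gene. *Olfml3* had 3 UMIs, at 1.05-fold and 0.664-fold.

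Other genes of that list were present. *Fcrls* was seen in 24.2% of macrophage nuclei, against 0.505% of the nuclei high in neuron genes. *Siglech* was seen in 15.9%, against 0.177%. *Cx3cr1*, the receptor for fractalkine, had 1.25 and 0.92 per 10000, 8.61-fold (6.03 to 12.02) and 7.005-fold (4.47 to 10.5). Its share of nuclei was 22.6% against 9.20% in the deeper nuclei high in neuron genes, and 8.73% against 1.19% after each nucleus was thinned to 1000 UMIs. *P2ry12*, a purinergic receptor, had 1.77 and 1.18 per 10000, 5.97-fold (4.47 to 7.85) and 4.12-fold (2.80 to 5.87). Its share was 26.2% against 15.9%, and 13.1% against 2.60% after thinning. *P2ry12* lies inside *Med12l* on the opposite strand, and *Cx3cr1* as annotated spans *Wdr48* and other genes, so that both carry the doubt of overlapping genes. *Gpr34* and *Tgfbr1* were called as well, while *Trem2*, with 7 and 8 UMIs, was under the minimum, and *Bin1* and *Sparc* were not called.

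**Figure D2:**
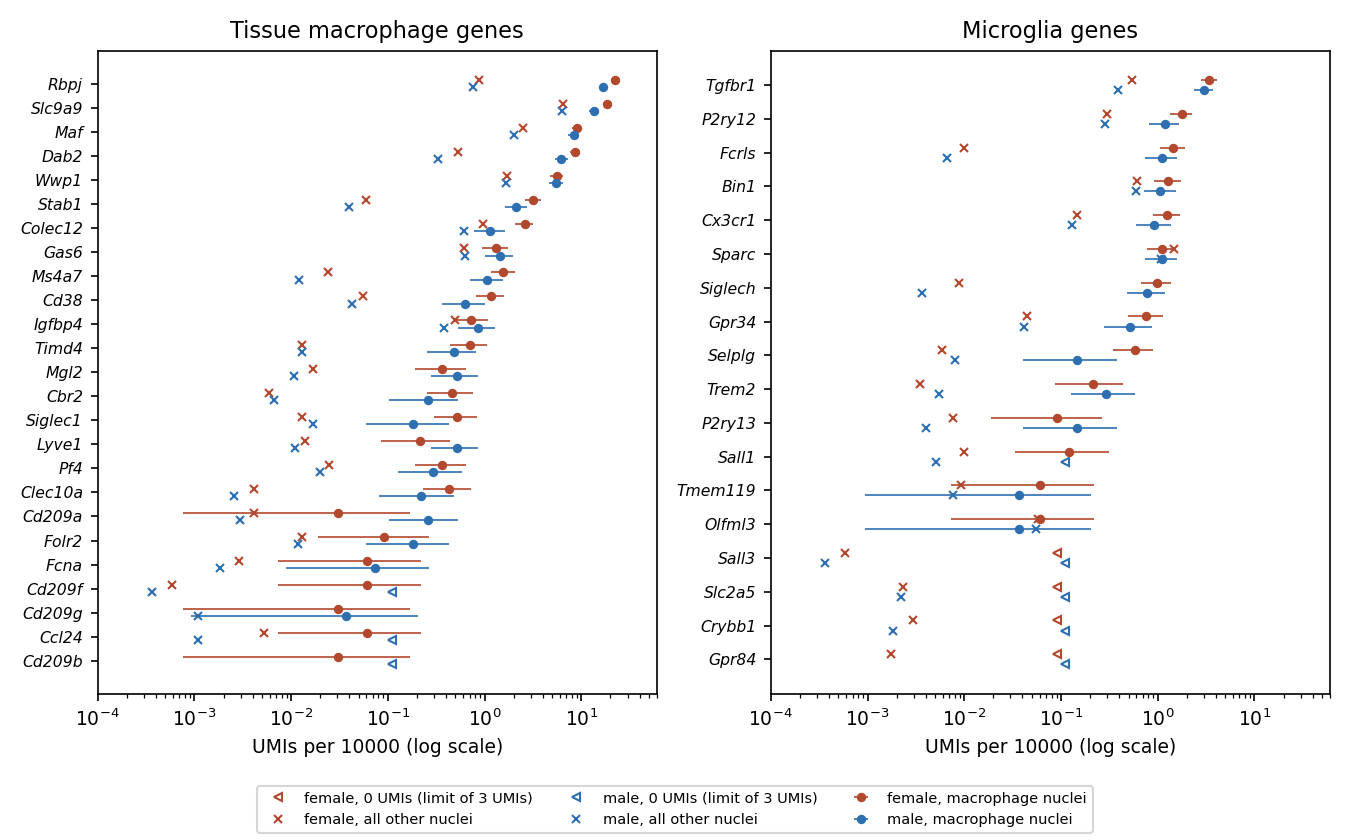
UMIs per 10000 (x axis, log scale) of 25 tissue macrophage genes and 18 microglia genes, sorted by UMIs in macrophage nuclei. Points with 95% Poisson intervals are the macrophage nuclei of each library, crosses all other nuclei where above 0, and open triangles stand at the level that 0 UMIs allow, as for *Sall3*, *Slc2a5*, *Crybb1* and *Gpr84* in both libraries.

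Myeloid transcription factors included some at high fold. Of 25 listed, 23 were examined and 9 called higher, with a median log2 ratio of 1.84, and 21 were above the other nuclei in both libraries. *Spi1*, which encodes PU.1, had 50 UMIs in female and 23 in male macrophage nuclei, 74.4-fold and 49.1-fold. *Ikzf1*, a zinc finger factor of blood cells, had 162 and 69 UMIs, 128-fold and 80.5-fold, and *Irf8* had 34 and 15, 53.7-fold and 38.6-fold. The levels of the 3 genes were all higher in the female nuclei. The neuron list had 38.3 per 10000 in male and 18.0 in female macrophage nuclei, and its part in this was not tested. *Runx1*, *Fli1*, *Mef2c*, *Mitf*, *Irf5* and *Zeb2* were called too. *Zeb2* had 30.6 and 23.1 per 10000 against 5.75 in the other nuclei, 4.56-fold and 4.50-fold.

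Most Fc receptor and Syk signalling genes were called. Of 20 genes, 19 were examined and 16 called higher, and the summed list had 33.9 and 25.1 per 10000, 15.2-fold and 12.1-fold. *Lyn*, a Src family kinase, was seen in 72.2% of macrophage nuclei against 19.8% of nuclei high in neuron genes, and *Inpp5d*, the inositol phosphatase SHIP1, was 68.3-fold and 62.7-fold. *Fcgr2b*, the inhibitory IgG receptor, had 28 and 22 UMIs, and *Tyrobp* and *Fcer1g*, the signalling adaptors, had 13 and 10 UMIs and 25 and 19 UMIs. Of 27 actin regulators of leukocytes, 25 were examined and 16 called, among them *Dock8* at 56.6-fold and 62.9-fold and *Arhgap15* at 28.6-fold and 21.2-fold. Of 6 phagocyte oxidase genes, 5 were examined and 4 called, with *Cybb*, the catalytic subunit, at 68.0-fold and 40.7-fold.

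Complement genes were uneven. *C1qa*, *C1qb* and *C1qc*, the chains of C1q, were 18.5-fold, 26.0-fold and 21.1-fold in the female and 24.7-fold, 20.6-fold and 27.4-fold in the male library. *C1qa* was seen in 25.4% of macrophage nuclei against 3.03% of nuclei high in neuron genes. The receptors *C3ar1*, *C5ar1* and *Itgam* and the component *C4b* were also called, and 8 of the 15 genes examined were called in all. *C3* had 2 and 1 UMIs, and *Cd55*, *Cd59a* and *Serping1*, which restrain complement on many cells, were between 0.544-fold and 1.21-fold. *Cfp*, which encodes properdin, had 13 UMIs in 12 female nuclei and 0 in the male nuclei. *Vsig4*, a complement receptor of resident macrophages, had 13 and 15 macrophage UMIs but fewer than 50 in all nuclei.

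Some clearance, lysosomal, iron and lipid genes were called higher. Of 16 scavenger and clearance receptors examined, *Msr1*, *Mertk*, *Axl*, *Itgb5* and *Cd300a* were called. *Mertk*, the receptor through which macrophages engulf dying cells, had 3.41 and 3.16 per 10000, 5.70-fold and 9.07-fold. Of 24 lysosomal genes, 3 were called, the proteases *Ctsc* and *Ctsh* and the membrane protein gene *Laptm5*, and the summed list was 1.87-fold and 1.78-fold. Of 13 iron genes, *Slc11a1*, the iron exporter of the phagosome, was called alone, with 8 and 10 UMIs, while ferritin heavy chain, *Fth1*, was 0.966-fold and 1.31-fold. Of 17 lipid genes, *Alox5*, *Alox5ap*, *Ptgs1* and *Hpgds*, all in the synthesis of leukotrienes and prostaglandins, were called, and *Apoe* was 1.25-fold and 1.495-fold. Lysosomal genes, *Fth1* and *Apoe* were therefore abundant in the other nuclei too. Nuclei high in neuron genes held 69.6% of all UMIs and weigh most in these ratios. The scavenger list had 14.0 per 10000 in macrophage and 18.8 in adipocyte nuclei. The lipid list had 23.3, against 96.2 in adipocyte and 29.3 in satellite glia nuclei. The iron list had 21.6, against 29.3 in Schwann and 24.5 in fibroblast nuclei. The lysosomal list was highest in macrophage nuclei, 33.4 against 25.6 in Schwann nuclei.

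Few cytokine RNAs were seen. Of 20 cytokine and chemokine genes, 5 had enough UMIs and *Cxcl16* and *Tgfb1* were called. *Il1b* had 0 and 1 UMIs, *Tnf* 5 and 1, *Il6* 1 and 0, and *Il10*, *Il1a*, *Ccl3* and *Cxcl10* had 0 in all macrophage nuclei. *Tgfb1* had 0.731 and 0.92 per 10000, 9.06-fold and 8.74-fold. Of 14 pattern recognition genes examined, *Tlr4*, *Tlr7*, *Ly86*, *Nlrp3*, *Irak2* and *Casp1* were called, and the summed list was 7.55-fold and 6.87-fold. Of 18 growth factor genes, *Tgfb1* was called higher and *Nrg1* lower, at 0.118-fold and 0.234-fold. *Igf1* was 3.78-fold and 3.06-fold, under the limit.

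**Figure D3:**
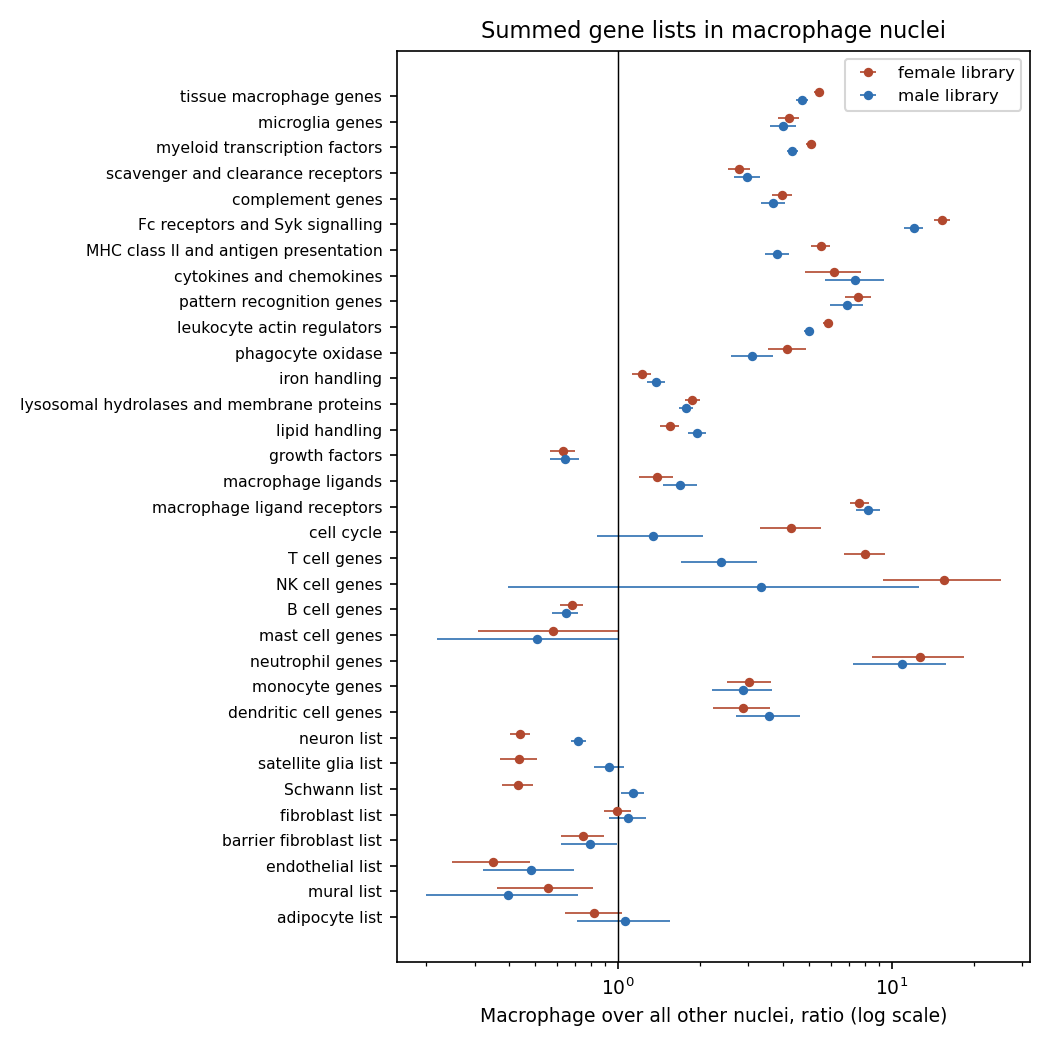
Ratio of summed UMIs per 10000 in macrophage nuclei to all other nuclei (x axis, log scale) for each gene list and library, with 95% counting intervals. Fc receptor and Syk genes lie at 15.2 and 12.1, and the neuron list lies below 1 here but above 1 when the other classes count the same.

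Most genes for receptors of macrophage ligands were called, and few of the ligand genes. Of 12 receptor genes, 11 were called higher, and the summed list was 7.63-fold and 8.22-fold. Of 12 ligand genes examined, *Tgfb1* was called alone. *Csf1*, a ligand of the receptor encoded by *Csf1r*, had 1 UMI in all macrophage nuclei and its highest level in nuclei high in endothelial genes, 0.54 per 10000 (0.401 to 0.712). *Il34*, the other ligand, had 4.68 per 10000 (3.62 to 5.96) in nuclei high in mural genes, 1.08 in those of barrier fibroblasts, 1.04 in those of Schwann cells and 0.15 (0.0686 to 0.285) in macrophage nuclei. *Cd200*, whose receptor gene *Cd200r1* was 93.8-fold and 64.9-fold higher in macrophage nuclei, had 2.21 in endothelial, 1.85 in mural and 0.517 in macrophage nuclei. *Cx3cl1*, the ligand of the receptor encoded by *Cx3cr1*, was highest in endothelial nuclei at 0.238 per 10000, and was 0.0333 in macrophage nuclei, from 2 UMIs. *Cxcl12* was at 2.31 in endothelial nuclei, and its receptor gene *Cxcr4* was the receptor not called, with 3 UMIs in each library. The endothelial and mural groups were 298 and 62 nuclei, chosen by the same limits on their own genes.

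MHC class II genes varied among the macrophage nuclei. *H2-Aa*, *H2-Ab1*, *H2-Eb1* and *Cd74*, which encode the chains of class II and the invariant chain, had 7.92 UMIs per 10000 in female and 5.04 in male macrophage nuclei. Each was called higher, with *Cd74* at 11.2-fold and 10.7-fold. With *Ciita*, the master regulator of class II, *H2-DMb1*, *Ctss*, *Cd80*, *Cd86*, *Cd40* and *Tap1*, 11 of 16 antigen presentation genes were called. The class I genes *H2-K1*, *H2-D1* and *B2m* were not, at 1.37-fold to 2.93-fold. At least 1 UMI of the 4 class II genes was seen in 129 of the 252 nuclei (51.2%), 75 female and 54 male, at a median depth of 1894 UMIs. The nuclei high in neuron genes, which should lack these genes, had such a UMI in 20.6% at a median depth of 3481.5. After thinning to 1000 UMIs the shares were 36.5% (30.6 to 42.8) and 5.74% (5.03 to 6.51). Some macrophage nuclei were thus counted by a UMI that may be background, and how many was not tested. Of the 129 nuclei 48 had 3 or more and the highest had 27, so that the nuclei form a range, and those without a UMI may have been missed.

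*Ccr2*, the chemokine receptor of cells that come from monocytes, was found mainly beside class II. It had 67 UMIs in female and 30 in male macrophage nuclei, 57.2-fold and 51.9-fold over other nuclei. In the female library *Ccr2* had 3.51 per 10000 (2.68 to 4.50) in the nuclei with a class II UMI and 0.389 (0.143 to 0.846) in those without. In the male library it had 2.02 (1.32 to 2.96) and 0.28 (0.0763 to 0.717). The intervals did not overlap in either library, and median depths were close, 1891 and 1814 UMIs in the female and 1996.5 and 1926 in the male library. The neuron list had 18.4 and 17.6 per 10000 with and without class II in the female and 40.5 and 36.2 in the male library. *Ly6c2*, *Plac8* and *Vcan*, which mark blood monocytes, had 1 UMI, 1 UMI and 5 UMIs in all macrophage nuclei.

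Levels of 3 rule genes, *Lyve1* and microglia genes were compared between the same nuclei. *F13a1* had 12.99 per 10000 (11.4 to 14.8) with class II and 21.7 (19.4 to 24.2) without it in the female library, and 11.3 (9.50 to 13.2) and 15.04 (13.1 to 17.2) in the male library, where the intervals touched. *Mrc1* had 12.4 and 16.1, and 8.23 and 12.3. *Lyve1* had 2 UMIs with and 5 without class II in the female library, and 2 and 12 in the male library, few UMIs whose intervals overlapped in both. *Cd163* had 1.67 (1.12 to 2.39) and 2.20 (1.53 to 3.08) in the female library and 1.86 (1.19 to 2.77) and 3.22 (2.36 to 4.29) in the male library, with intervals that overlapped. *Fcrls* had 37 UMIs with and 40 without class II, and *P2ry12* 42 and 48. The summed microglia list had 17.1 per 10000 (15.2 to 19.2) with class II and 13.7 (11.9 to 15.7) without it in the female library, and 13.97 (12.01 to 16.2) and 11.5 (9.79 to 13.4) in the male library, with intervals that overlapped in each. Over both libraries it had 15.8 (14.4 to 17.3) and 12.6 (11.4 to 13.99), which did not overlap. The tissue macrophage list, which holds no gene of the rule, had 63.9 per 10000 (60.2 to 67.8) with class II and 93.7 (88.96 to 98.7) without it in the female library. In the male library it had 56.3 (52.3 to 60.5) and 64.1 (60.005 to 68.4), with intervals that overlapped slightly. As *F13a1*, *Mrc1* and *Cd163* were also used to choose the nuclei, a nucleus with few of them had to hold other rule genes to be counted, which bears on these levels. A UMI of *Lyve1*, *Cd209f*, *Cd209g*, *Folr2*, *Cbr2*, *Pf4* or *Cd163* was seen in 96 nuclei, of which 40 also had a class II UMI, and 67 nuclei had neither.

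**Figure D4:**
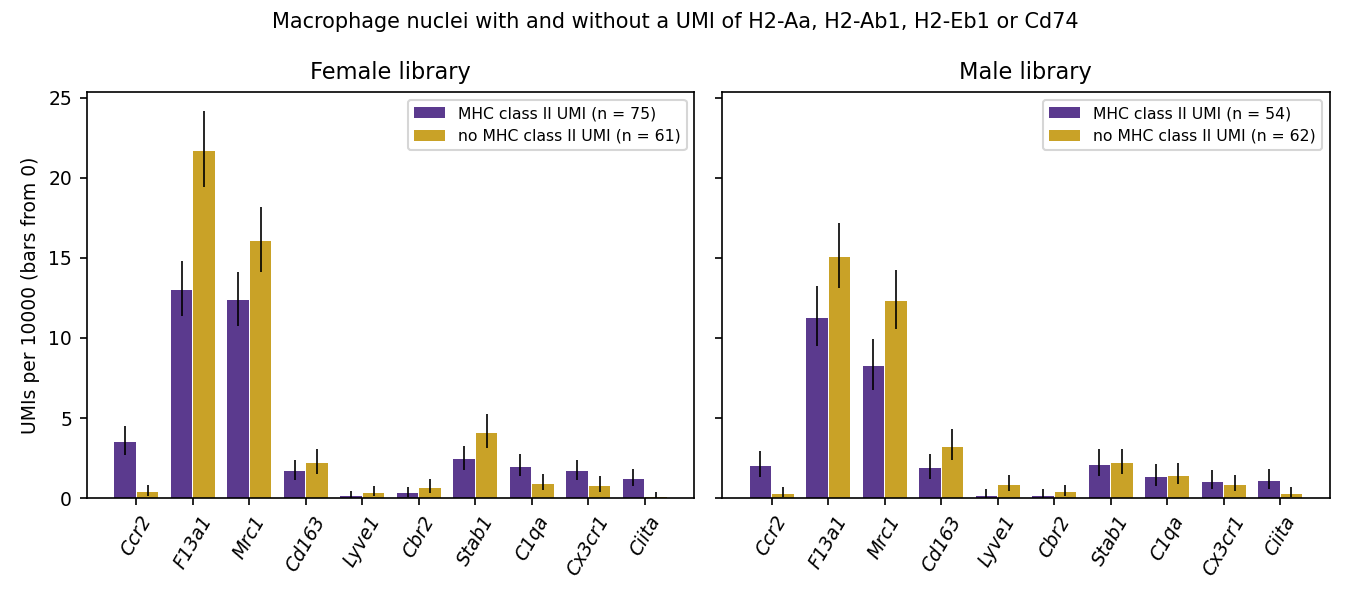
UMIs per 10000 of 10 genes in macrophage nuclei with a UMI of *H2-Aa*, *H2-Ab1*, *H2-Eb1* or *Cd74* (75 female, 54 male) and without (61 female, 62 male). Bars start at 0, lines are 95% Poisson intervals, and *Ccr2* is higher with class II in both libraries. *F13a1*, *Mrc1* and *Cd163* were used to choose the nuclei.

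A small set of the chosen nuclei lacked the genes that define macrophages. *Ptprc* and *Dock2* are used by all leukocytes, and 35 nuclei, 20 female and 15 male, were chosen with 0 UMIs of *Mrc1*, *F13a1*, *Csf1r*, *Cd163* and *Adgre1*. In these the tissue macrophage list had 19.5 UMIs per 10000, against 77.3 in the other 217. T cell genes summed to 20.7 per 10000 in the 35 nuclei and 0.706 in the 217, and 12 of the 35 had 4 or more T cell UMIs. *Skap1*, an adaptor of the T cell receptor, had 63 UMIs in 9 of the 20 female nuclei and 7 in 1 of the 15 male nuclei. *Cd247* had 12 and 0 and *Il7r* 10 and 0 UMIs in the female and male nuclei. Of the T cell receptor complex itself, *Cd3g* had 4, *Cd3e* 2, *Cd3d* 1 and *Trac* 0 UMIs in the 35 nuclei. *Pax5*, the factor of B cells, had 2 and 11 UMIs, the latter in 3 male nuclei. Further lists of macrophage genes were lower or overlapped. Complement genes had 9.10 per 10000 (7.08 to 11.5) in the 35 nuclei and 17.7 (16.5 to 18.8) in the 217, myeloid transcription factors 54.2 (49.1 to 59.7) and 82.5 (80.02 to 84.96), and pattern recognition genes 6.86 (5.12 to 8.99) and 9.995 (9.16 to 10.9), with no overlap of the intervals. Intervals overlapped for Fc receptor and Syk genes, which had 25.4 per 10000 (21.98 to 29.3) in the 35 nuclei and 30.6 (29.1 to 32.1) in the 217, and for microglia genes, which had 11.7 (9.42 to 14.4) and 14.6 (13.6 to 15.7). *Gpnmb* and *Mmp12*, known from activated macrophages, had 23 and 21 UMIs in the 35 nuclei, of which 22 and 20 lay in 1 nucleus each. The 35 nuclei were chosen on *Ptprc* and *Dock2* alone, and where T or B cell genes are present the data go against the name. They were counted as chosen.

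Lists of other blood cells were taken over all 252 nuclei, where 2.54% of all genes were called higher. Of the T cell list 1 gene of 8 examined was called (*Themis*), and of the B cell list 2 of 6 (*Bank1* and *Ighm*). Of the neutrophil list 1 of 3 was called (*Csf3r*), of the monocyte list 2 of 6 (*Ccr2* and *Itgal*) and of the dendritic cell list 1 of 6 (*Siglech*). The summed B cell list was lower, 0.678-fold (0.614 to 0.748) in the female and 0.645-fold (0.578 to 0.718) in the male library, with *Ebf1* its most abundant gene. The summed mast cell list was also under 1 in both libraries, and the neutrophil, monocyte and dendritic cell lists were above 1 in both. No gene of 3 examined for mast cells or of 1 for NK cells was called. The summed NK cell list, with 23 female and 2 male UMIs, was 15.6-fold (9.32 to 25.1) and 3.34-fold (0.396 to 12.6). It had 2.51 per 10000 in the 35 nuclei without a defining gene and 0.114 in the other 217. The T cell list summed to 4.63 per 10000 in female and 1.55 in male macrophage nuclei, 7.99-fold and 2.38-fold over other nuclei. With *Ptprc* and *Dock2* left out of the rule its log2 ratio over both libraries was -1.255. Several called genes, *Bank1*, *Csf3r*, *Ccr2* and *Siglech* among them, are also known from macrophages or microglia. Of 13 cell cycle genes examined 0 were called, and 6 nuclei, 5 of them female, held 4 or more UMIs of that list. The summed list was 4.30-fold (3.30 to 5.52) in the female and 1.35-fold (0.843 to 2.05) in the male library, and 3.55-fold (2.65 to 4.67) in the female without the nucleus with the highest number of its UMIs.

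Genes of neurons and glia were present in the macrophage nuclei. The neuron list had 18.0 UMIs per 10000 in female and 38.3 in male macrophage nuclei, 0.441-fold and 0.719-fold of the other nuclei, and 0 of its 12 genes were called, with *Stmn2* the most abundant and none at 0. When each of the other classes counts the same the direction turns, from a log2 ratio of -0.83 to 0.23. Over both libraries the list had 59.7 per 10000 in the nuclei it chose and 27.2 in the macrophage nuclei, above the 11.6 to 25.7 of the other classes. That range is of both libraries together. The 18.0 of the female macrophage nuclei lay within it, and the 38.3 of the male ones above it. Other nuclei joined the neuron class where that list had the most UMIs past the limits. Macrophage nuclei stayed in their class whatever their neuron UMIs. This holds down the neuron list in the other classes, so that the comparison is not an even one. Of the macrophage nuclei, 147 passed the same 4 UMIs and 15 per 10000 for neuron genes, 33 for Schwann cell genes, 20 for fibroblast genes and 19 for satellite glia genes. Without every such nucleus, 75 female and 13 male nuclei were left. With limits of 8 UMIs and 40 per 10000 of another class, 126 and 65 were left. Whether those nuclei are doublets or carry free RNA was not tested.

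Of the genes called lower, the 8 of lowest measured fold were *Nwd2*, *Rtl1*, *5530401A14Rik* and 5 non-coding RNAs, 4 of which are annotated as antisense. Genes with 0 UMIs in both libraries were ranked first at a fold of 0, so that their rank is not measured. All 8 had their highest level in the nuclei high in neuron genes. *Nwd2* had 1 UMI in each library against 1.34 and 1.35 per 10000 in the other nuclei. *Rtl1*, a gene derived from a retrotransposon, had 0 UMIs against 0.493 and 0.759 per 10000, which makes it at least 5.39-fold and 6.88-fold lower with the limit of 3 UMIs per library. *Grip1os2*, *5530401A14Rik* and *Gm32509* also had 0 UMIs in both libraries. By the same limit they were at least 4.66-fold and 4.98-fold, 3.45-fold and 3.76-fold, and 3.41-fold and 3.71-fold lower, so that for the latter pair 0 UMIs do not secure the 4-fold of the call. Of the 148 genes called lower, 6 were not secured by the limit of 3 UMIs in at least 1 library. This number leaves out *Grip1os2*, and was not counted by the exact interval.

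The libraries were compared within the macrophage nuclei. Of 6462 genes with at least 20 UMIs in them, 670 were at least 2-fold higher in the male (10.4%) and 464 in the female nuclei (7.18%), with a median log2 ratio of -0.04. Of the 670, 582 were also higher in the male library in all other nuclei, and of the 464, 400 were also higher in the female, with 24 and 67 at least 2-fold. Of all 6462 genes, 43.1% were higher in the other male and 56.9% in the other female nuclei. The neuron, Schwann and satellite glia lists were all higher in male macrophage nuclei, with log2 ratios of 1.09 (0.94 to 1.24), 1.12 (0.89 to 1.35) and 0.93 (0.65 to 1.22), against 0.38, -0.28 and -0.16 in all other nuclei. The fibroblast, barrier fibroblast and adipocyte lists were lower in male macrophage nuclei, with -0.65 (-0.93 to -0.37), -0.52 (-0.96 to -0.09) and -1.09 (-1.77 to -0.44), against -0.77, -0.61 and -1.47. Several lists of macrophage genes were lower in male macrophage nuclei, with -0.37 for tissue macrophage genes, -0.30 for microglia genes and -0.43 for Fc receptor and Syk genes. In all other nuclei these were -0.17, -0.23 and -0.10. The lysosomal, lipid and iron lists were higher, with 0.27, 0.32 and 0.47, against 0.35, -0.01 and 0.29. The part of the neuron and glia RNA in these differences was not tested.

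Some genes of large difference rested on 1 or a few nuclei. *Gpnmb* had 24 UMIs, all in male nuclei, and 22 of them lay in 1 nucleus, and *Mmp12* had 20 of its 21 UMIs in 1 nucleus. *Il12b* had 22 UMIs, all in 1 female nucleus. Their differences between the libraries rest on single nuclei. *Slc6a2*, *Dbh* and *Ddc*, of noradrenaline transport and synthesis, had 47, 38 and 30 UMIs in male and 2, 3 and 2 in female macrophage nuclei, and were also higher in the other male nuclei, by 2.68, 3.03 and 1.60 on the log2 scale. *Prl* and *Ntm* were higher in female macrophage nuclei and in other female nuclei, with male over female log2 ratios of -4.53 and -3.88 in the macrophage nuclei and -3.87 and -2.58 in the others. *Slc7a11*, *Ranbp3l* and *Gm36723* had 27 of 53, 28 of 46 and 16 of 30 UMIs in 1 nucleus. *Cetn2*, *Ahnak2* and *Cdkn2d* were spread over 20, 18 and 17 male nuclei, and *Tmem108* was seen in 9 female nuclei, with 8 of its 28 UMIs in 1.

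**Figure D5:**
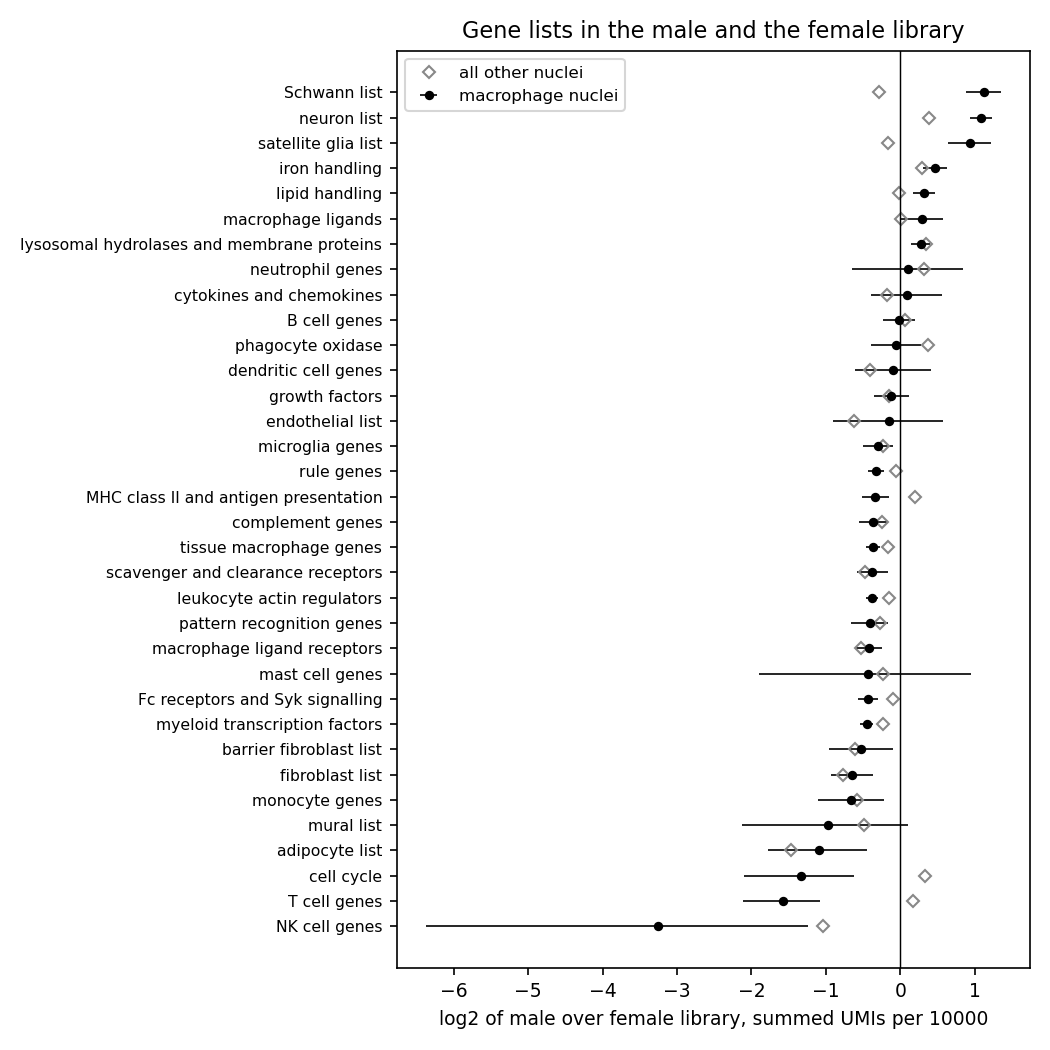
Log2 ratio of male to female summed UMIs per 10000 (x axis) for each gene list, sorted by the value in macrophage nuclei (black points with 95% counting intervals), with all other nuclei as grey diamonds. The Schwann, neuron and satellite glia lists lie near 1 in macrophage nuclei, and the tissue macrophage and microglia lists at -0.37 and -0.30.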

How the data were processed

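Single-nucleus RNA was sequenced from 1 library of pooled ganglia of each sex. The authors deposited counts of UMIs per gene and nucleus, made with Cell Ranger 7.1.0 on mm10 with an added transgene sequence and introns counted. They kept barcodes with a DIEM debris score under 0.5, over 250 genes and over 1000 UMIs. The paper says that Cell Ranger and DIEM took out low-quality cells and possible doublets. It names no upper limit on UMIs and no doublet caller. In the deposited counts the lowest nucleus had 980 UMIs. Both libraries were combined by cellranger aggr, in which reads of the deeper library are subsampled. No doublet caller was run here.

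Barcodes were given a sex because their number per library equals the number of nuclei stated for each sex, and sex-linked genes were checked. The 252 nuclei, the 34 gene lists and the named genes (rule genes, list genes, 25 of highest and 8 of lowest fold, 8 of each sex) were chosen with earlier results of these data known. Highest fold was ranked by the lower of the 2 library folds, and lowest fold by the higher of them. UMIs were summed over nuclei and divided by their total. As members were chosen from these counts and each sex has 1 library, no test was made. Intervals are exact Poisson, Clopper-Pearson or conditional binomial at 95%, and cover counting error only. A gene at 0 had 0.5 UMIs added for a ratio, and a limit is 3 UMIs. Nuclei under 1000 UMIs (19) were left out of thinning. Other classes came from the same limits on marker lists, of which the neuron class (3958 nuclei) is wide, since its genes had UMIs in every class. How reads of overlapping genes were assigned is not stated. Gene positions are from GENCODE M21 on mm10, matched for 32235 of 32286 features. The call rules were tested on simulated data. Analyses used Python 3.11.15, numpy 2.4.6, scipy 1.17.1 and pandas 2.3.3. Other rule limits, class and depth limits, weights, thresholds, comparison groups and each library alone were tried. Some genes are not reported here.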

Additional observations from a re-analysis of the deposited data

Results flagged for a closer look

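All 34 gene lists and the named genes reported here with at least 20 macrophage UMIs were looked through. In 6 of these the macrophage nuclei differed from the other nuclei in opposite directions in the 2 libraries. Their counting intervals excluded equality on both sides, with no allowance made for the number of items looked through. The difference between the libraries was not tested. The summed Schwann cell list was 0.431-fold in the female and 1.14-fold in the male library. *Stmn2*, a neuron gene, was 0.641-fold and 1.14-fold. *Fabp5*, a fatty acid-binding protein gene, was 0.744-fold and 1.23-fold. *Cetn2*, which encodes a centrin, was 0.134-fold and 2.10-fold, *Cdkn2d*, a cell cycle inhibitor gene, was 0.239-fold and 1.68-fold, and *Slc7a11*, a cystine transporter gene, was 1.58-fold and 0.121-fold. The last 3 genes had been named for their large difference between the libraries, which bears on these values. In a check chosen after seeing the data, the 1 macrophage nucleus with the highest number of UMIs of each was left out. *Slc7a11*, of whose 51 female UMIs that nucleus held 27, then turned to 0.77-fold (0.492 to 1.15) in the female library. In the male library the Schwann cell list was then 1.05-fold (0.949 to 1.16), *Fabp5* 1.19-fold (0.995 to 1.41) and *Cdkn2d* 1.52-fold (0.884 to 2.45), and the intervals of all 4 included equality. *Stmn2* and *Cetn2* were then 1.14-fold (1.02 to 1.28) and 1.91-fold (1.15 to 3.002) in the male library, still above 1.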

How the results depend on the processing

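No paired analysis was possible because each sex had 1 library, and for the same reason leaving out a replicate was not possible. Alternatives that leave out nuclei past 8 UMIs and 40 per 10000 of another class, or nuclei without a defining gene, were chosen after seeing the data. In what follows the cause of a change was not tested.

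Macrophage nuclei, 3.587% (female library) and 2.356% (male library) of nuclei, were 2.216% and 1.523% without *Ptprc* and *Dock2* in the rule, 2.77% and 1.808% at 6 UMIs and 20 per 10000, and 2.678% and 1.361% when chosen again on thinned counts (101 of 3772 and 67 of 4923 nuclei). Elsewhere thinning kept the 252 nuclei. Where nuclei were left out of the total as well, they were 2.011% of 3730 and 0.2697% of 4820 nuclei without those past the limits of another class, and 2.403% of 2330 and 1.615% of 3405 nuclei over 2000 UMIs. Without nuclei past 8 UMIs and 40 per 10000 of another class the male share was 1.334% of 4872 nuclei. The share with *Mrc1* (72.22%) was 92.45% without *Ptprc* and *Dock2*, 61.51% after thinning and 83.87% with defining genes required, and that with *C1qa* (25.4%) was 31.45% and 14.29% under the first 2 of these.

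Genes called higher (435) numbered 958 at 2-fold, 274 at 8-fold, 211 with 20 macrophage UMIs in each library, 114 without nuclei past the limits of another class and 223 after thinning. Genes called lower (148) numbered 547 at 2-fold, 356 and 285 in the female and male library alone, 79 without nuclei past the limits of another class, 73 after thinning and 98 over 2000 UMIs. Genes higher in male nuclei (670) numbered 277 at 50 UMIs, 226 without nuclei past the limits of another class and 299 after thinning, and those higher in female nuclei (464) numbered 140 at 50 UMIs and 229 after thinning.

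The log2 ratio of the tissue macrophage list (2.382) was 2.746 without *Ptprc* and *Dock2*, 2.252 at 3 UMIs and 10 per 10000, 2.569 at 6 and 20, 2.438 and 2.235 in the female and male library alone, 2.866 and 2.572 without nuclei past the lower and the higher limits of another class, 2.32 over 2000 UMIs and 2.525 with defining genes required. The microglia list (2.084) was 1.91 as a mean over nuclei, 2.424 and 2.243 without nuclei past those limits, 1.916 after thinning and 1.655 with other classes counting the same. The MHC class II and antigen presentation list (2.195) was 2.039 without *Ptprc* and *Dock2*, 2.46 and 1.93 in the female and male library alone, 1.996 as a mean over nuclei, 2.674 and 2.302 without nuclei past those limits, 1.978 after thinning, 2.025 over 2000 UMIs and 1.606 with other classes counting the same. Direction turned for the T cell list without *Ptprc* and *Dock2* (-1.255) and for the neuron list with other classes counting the same (0.2254).

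Depth limits single genes, and a count of 0 allows up to 0.05 per 10000 over both libraries.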
